A study of Mus musculus with 12 samples.

Results

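The genes described here are 10 protein-coding genes of the germline and of meiosis: Dazl, Ddx4, Mael, Sycp3, Hormad1, Stk31, Slc25a31, Tex101, Tdrkh and Prdm1. Each was taken as the assembled locus that carries the gene's name through a transcript equal to, or sharing a splice junction with, an annotated transcript. This gave 10 loci of the 80012 counted, 1 for each name, and all 10 passed the filter on low values, none of them through ESC alone. Dazl, Hormad1, Stk31 and Tex101 were under its threshold in Eo+ cells and passed through the other groups, where they were higher. RNA was sequenced from mouse embryonic stem cells (ESCs) of an EomesEGFP reporter line on a C57BL/6 background, in which green fluorescent protein is expressed from the start site of the endogenous Eomes gene. The 3 groups were undifferentiated ESCs at day 0, and the Eomes-negative (Eo−) and Eomes-positive (Eo+) fractions sorted by fluorescence at day 3 from embryoid bodies grown in hanging drops, with 4 libraries in each group. Every library came from the same reporter line, the ESCs had been grown on mouse embryonic fibroblast feeders, and by the methods the 12 libraries stem from 4 sets of differentiation. The labels do not tie a library to a set. The replicates are numbered 1, 2, 5 and 6 in each group.

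Germ cells are set apart early in the embryo and later enter meiosis, the division that reduces the chromosome set. Their cytoplasm holds RNA and protein granules in which piRNAs, small RNAs that guide the silencing of transposons, are made and used. Many genes of this programme are silenced in somatic cells, in part by DNA methylation and by a repressor complex with E2F6, MGA and MAX that binds E2F-type and E-box motifs near start sites. ESCs are known to transcribe some of these genes, although they are not germ cells.

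The promoters are shown because these motifs lie in them at some of the genes and not at others. All 10 genes had a RefSeq window (GRCm38.p6, from 250 bases before to 50 bases after the start site). CACGTG (the E-box, its own reverse complement) was searched, and TCCCGC (an E2F-type motif) on both strands (GCGGGA where it lies on the other strand). The E-box was found in 6 of the 10 windows (Ddx4, Mael, Sycp3, Hormad1, Stk31 and Slc25a31) and the E2F-type motif in 5 (those genes without Stk31). Neither was found at Dazl, Tex101, Tdrkh or Prdm1. Of all 32851 mouse windows of this length, 7.15% held CACGTG, 20.0% held TCCCGC and 1.99% held both. The windows of the 10 genes were rich in CpG, with 15 to 38 CpG each, and among the 11378 windows with at least 15 CpG the shares were 11.3%, 45.4% and 5.04%. In the 150-base stretches below, capitals mark either motif. The E2F-type motif of Slc25a31 begins 21 bases after the start site and another of Mael 12 bases after it, both outside the stretches. The last base of each stretch except that of Mael is the base before the start site.
Hormad1, chr3:95559527-95559676, plus strand: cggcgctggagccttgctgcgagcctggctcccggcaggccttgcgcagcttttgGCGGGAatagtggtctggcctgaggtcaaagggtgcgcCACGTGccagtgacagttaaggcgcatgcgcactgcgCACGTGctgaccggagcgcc
Sycp3, chr10:88459437-88459586, plus strand: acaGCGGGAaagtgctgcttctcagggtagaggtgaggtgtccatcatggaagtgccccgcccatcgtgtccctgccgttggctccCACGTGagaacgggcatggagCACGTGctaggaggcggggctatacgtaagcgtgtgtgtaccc
Ddx4, chr13:112652311-112652460, minus strand: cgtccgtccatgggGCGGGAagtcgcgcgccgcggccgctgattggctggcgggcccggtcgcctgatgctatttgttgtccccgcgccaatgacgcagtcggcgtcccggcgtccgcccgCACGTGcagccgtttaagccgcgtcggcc
Mael, chr1:166238845-166238994, minus strand, from 250 to 101 bases before the start site: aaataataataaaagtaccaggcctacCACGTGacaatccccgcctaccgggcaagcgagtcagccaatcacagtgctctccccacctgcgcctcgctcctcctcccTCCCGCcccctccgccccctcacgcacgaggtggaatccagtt
Slc25a31, chr3:40708721-40708870, plus strand: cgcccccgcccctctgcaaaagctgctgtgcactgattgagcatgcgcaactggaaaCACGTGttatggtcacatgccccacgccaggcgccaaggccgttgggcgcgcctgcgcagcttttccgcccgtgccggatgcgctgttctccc
Stk31, chr6:49395389-49395538, plus strand: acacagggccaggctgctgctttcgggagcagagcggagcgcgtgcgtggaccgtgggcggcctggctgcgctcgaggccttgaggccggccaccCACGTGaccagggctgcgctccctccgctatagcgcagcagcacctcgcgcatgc
Dazl, chr17:50293621-50293770, minus strand: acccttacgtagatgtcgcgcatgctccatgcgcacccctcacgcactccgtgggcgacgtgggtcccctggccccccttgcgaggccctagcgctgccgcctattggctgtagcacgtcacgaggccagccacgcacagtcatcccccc
Tdrkh, chr3:94413094-94413243, plus strand: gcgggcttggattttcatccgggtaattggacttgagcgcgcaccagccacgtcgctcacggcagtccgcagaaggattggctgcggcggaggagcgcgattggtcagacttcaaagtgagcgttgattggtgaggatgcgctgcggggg

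The 2 genes of the meiotic chromosome axis, Hormad1 and Sycp3, each carried 2 E-boxes within 64 bases before the start site. At Hormad1 they began at -57 and -20, and at Sycp3 at -64 and -43. The E-box of Ddx4 began at -29, that of Stk31 at -55, that of Slc25a31 at -93 and that of Mael at -223. Dazl and Tdrkh are shown as windows without either motif, and of these, Dazl was lower in Eo+ and Tdrkh did not pass the test. A match is a sequence of letters and not a measured binding site.

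**Figure D1:**
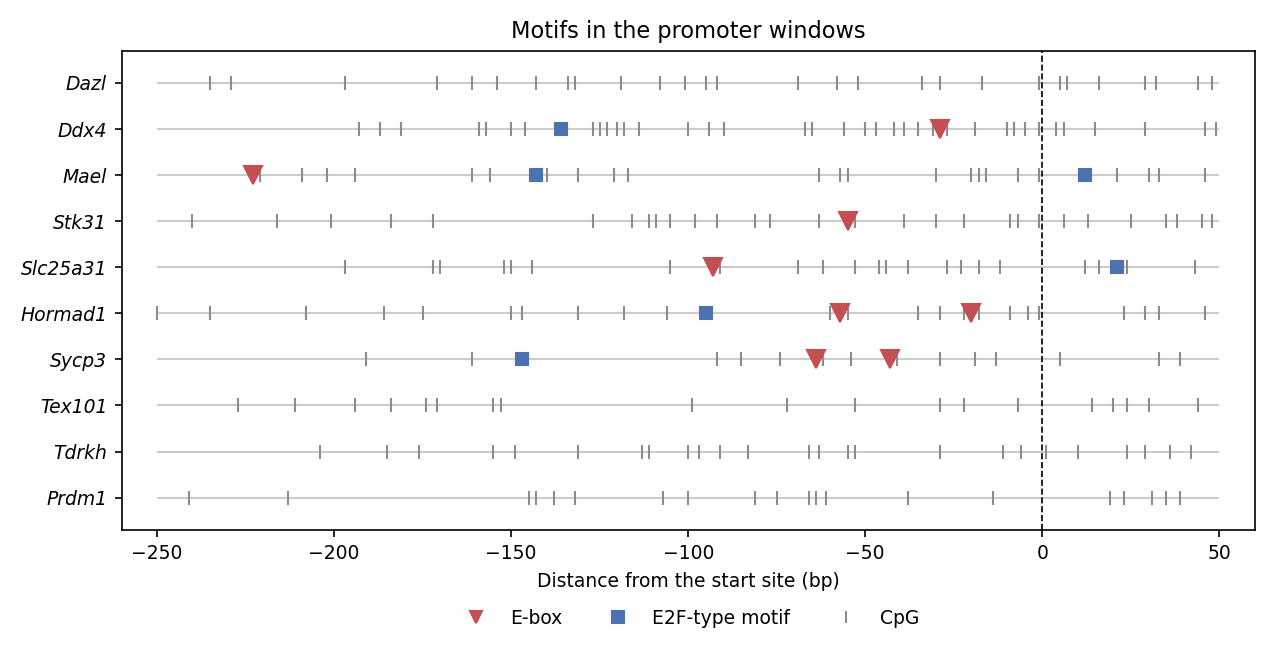
Position of motifs in the 10 promoter windows, with the distance from the RefSeq start site in bp on the horizontal axis and 1 line per gene. Red triangles mark CACGTG (E-box), blue squares TCCCGC on either strand (E2F-type) and grey ticks CpG, each at its leftmost base. The 6 genes with an E-box are Ddx4, Mael, Stk31, Slc25a31, Hormad1 and Sycp3.

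Values are given as CPM, counts scaled to a common library size, and, where genes are compared with each other, as FPKM, which also divides by the summed exon length. Locus counts ranged from 648413022 to 837308168 per library, so that 3 counts, the level below which a value is treated as not detected, were 0.00353 to 0.00469 CPM. This floor covers counting error only, whereas the standard errors and confidence intervals of the fold changes come from the spread between libraries. Markers fixed for other cell types were summed in each library. The sum over 5 pluripotency genes was 2405 to 3260 CPM in ESC, 1121 to 1494 in Eo− and 435 to 761 in Eo+ libraries, and the sum over 5 mesendoderm genes, Eomes among them, was 89.8 to 277, 236 to 480 and 1281 to 2174 CPM, both in the direction the labels give. The sum over 9 feeder fibroblast genes was 98.4 to 236 CPM in ESC and 28.9 to 42.8 CPM in both sorted fractions. Of the 8 such genes tested, 7 were lower in Eo+ than in ESC and 1 was higher, while over all loci tested 35.8% were lower and 36.1% higher. Of the 8 feeder genes, 2 had passed the filter through ESC alone. The part of the feeders in the differences from ESC was not tested. In bulk RNA, fewer cells that express a gene and less RNA per cell cannot be told apart.

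Compared with ESCs, 8 of the 10 genes were lower in Eo+ cells, and Tdrkh and Prdm1 did not pass the test. Differences were tested with limma across the 17922 loci whose mean exceeded 0.1 FPKM in some group, two-sided, and called at a Benjamini-Hochberg adjusted p of at most 0.05. Dazl, Hormad1, Stk31 and Tex101 had Eo+ means under 0.1 FPKM and entered through ESC and Eo−, where they were higher. That they were lower in Eo+ than in either group is therefore in part tied to the filter. Of all loci tested, 71.9% were called in this comparison, 36.1% higher and 35.8% lower, so the share of the 10 genes called lower is to be read against that background. No gene of the 10 was called higher with limma, edgeR or DESeq2, and in the limma fit the count stayed at 0 without the adjustment. Of the 10 genes, 8 had all 4 Eo+ libraries below the 4 ESC libraries, as did 31.9% of loci. They are the same 8 that were called lower. Over all loci the share lower without overlap (31.9%) is close to the share called lower (35.8%). Lack of overlap therefore adds little to a call. As for size, 7 of the 10 genes were called and at least 4-fold lower, against 14.9% of loci, and the median log2 fold change was -3.58, against 0.00975 over all loci. The 10 genes were chosen with earlier results of these data known, so an excess over all loci, here and below, is no independent evidence.

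In Eo− cells most of the genes were lower than in ESCs, by less than in Eo+ except for Prdm1. Of the 10 genes, 7 were lower, Mael was higher, and Sycp3 and Tdrkh did not pass the test. Calls on Mael and Slc25a31 were fragile, being lost in 9 and 15 of 22 alternatives, and with edgeR 6 genes were lower and 0 higher. Of all loci 62.3% were called in this comparison, 31.3% higher and 31% lower. At 5 of the 10 genes, all among the 7 called lower, the Eo− libraries lay below the ESC libraries. Over all loci 27.9% did so, close to the 31% called lower. Of the 10 genes 1, Hormad1, was called and at least 4-fold lower (9.65% of loci). The median log2 fold change was -0.98, against 0.02 over all loci. Compared directly, 8 genes were lower in Eo+ than in Eo− without overlap of the libraries, Prdm1 was higher and Tdrkh did not pass the test. Of all loci 47.6% were called between the fractions, 24.6% lower and 23.1% higher, 23.5% were lower without overlap, and 8.28% were called and at least 4-fold lower, as were 6 of the 10 genes. The 3 comparisons share libraries and are not independent of each other.

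**Figure D2:**
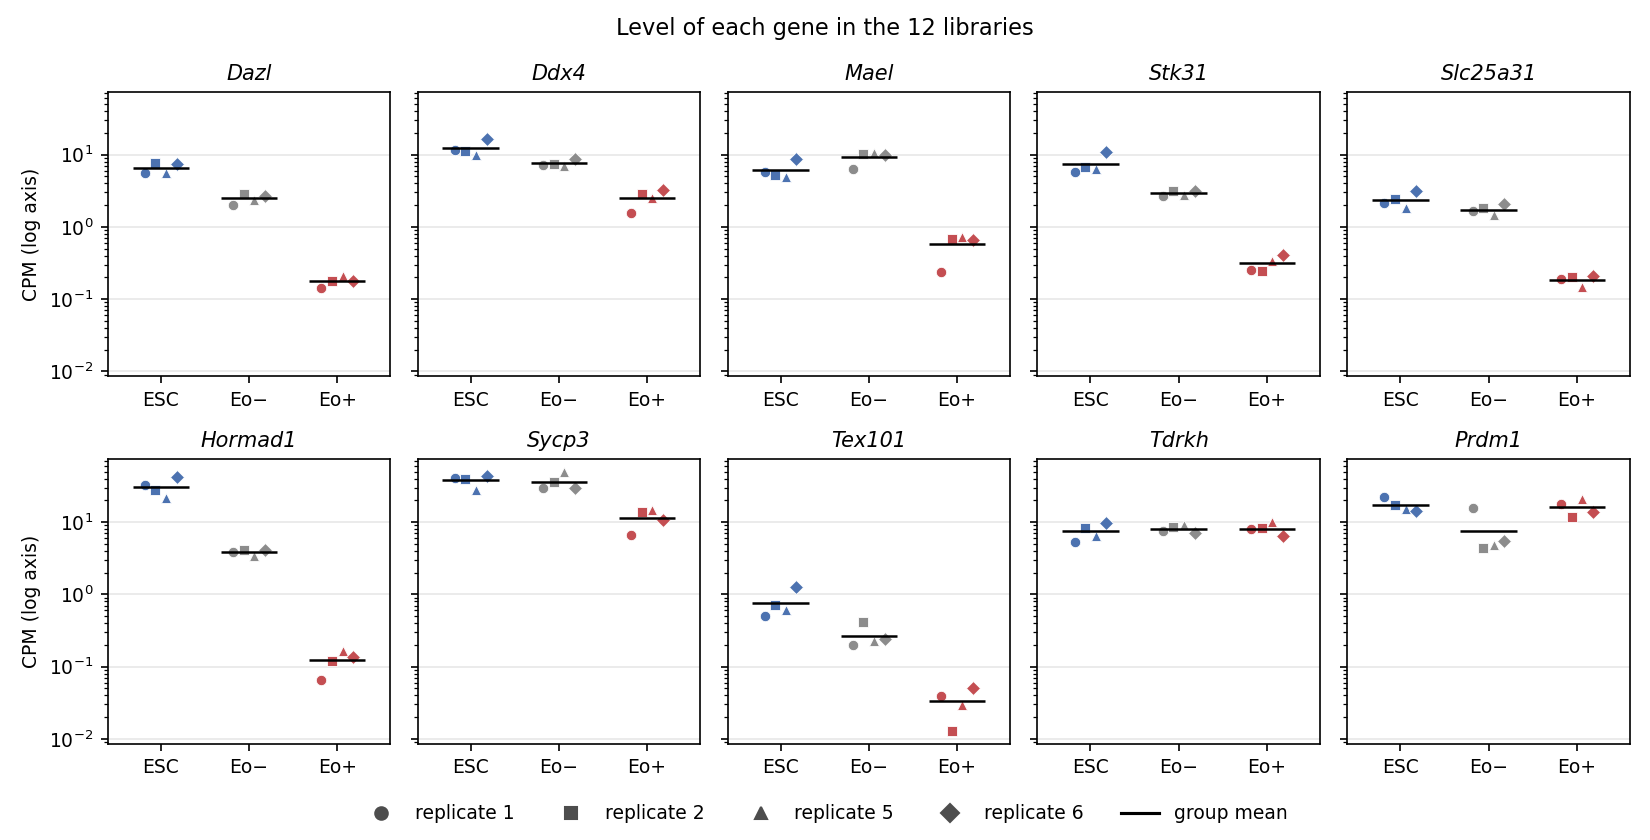
CPM on a log axis for each of the 10 genes in ESC (blue), Eo− (grey) and Eo+ (red) libraries, 1 point per library with its shape giving the replicate number, and a bar at the mean of 4 libraries. In 8 panels the Eo+ points lie below all others, the groups of Tdrkh overlap, and in Prdm1 replicate 1 of Eo− (15.6 CPM) stands above the other Eo− libraries.

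Per length, Sycp3 led in ESCs at 29.8 ± 5.56 FPKM (SD, n = 4), followed by Hormad1 at 17.9 ± 4.87. Ddx4 (4.15), Mael (3.93), Prdm1 (2.82), Dazl (2.19), Stk31 (2.03), Slc25a31 (1.43), Tdrkh (1.06) and Tex101 (0.728 FPKM) came next. Hormad1 and Ddx4 were the only neighbours in this order whose libraries did not overlap. In Eo+ cells the order was Sycp3 at 9.12 FPKM, Prdm1 at 2.62, Tdrkh at 1.16, Ddx4 at 0.853, Mael at 0.367, Slc25a31 at 0.112, Stk31 at 0.0858, Hormad1 at 0.0703, Dazl at 0.0595 and Tex101 at 0.0313. The Eo+ libraries of Hormad1 overlapped those of Stk31 and Dazl. In Eo− cells Sycp3 (28.4 FPKM) and Mael (5.96 FPKM) stood apart from the next gene, Ddx4 at 2.54, without overlap.

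Dazl is an RNA-binding protein that controls translation in germ cells. The locus lies on chr17:50279394-50293624 of mm10, on the minus strand. Dazl measured 5.53, 7.59, 5.63 and 7.30 CPM in ESC replicates 1, 2, 5 and 6, 2.03, 2.89, 2.37 and 2.71 in Eo−, and 0.143, 0.179, 0.209 and 0.177 in Eo+. The 3 groups did not overlap, in the order ESC, Eo−, Eo+. The mean fell to 38.4% of the ESC mean in Eo− (log2 fold change -1.37 ± 0.16 SE, limma adjusted p = 5.38e-06) and to 2.71% in Eo+ (-5.19 ± 0.25, adjusted p = 1.11e-09). The Eo+ values rest on 112 to 148 counts per library and stay above the floor.

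Ddx4, an RNA helicase of the germ granule also known as Vasa (chr13:112598290-112652353, minus strand), fell by less. Its levels were 11.5, 11.2, 9.995 and 16.6 CPM in ESC, 7.28, 7.44, 6.86 and 8.58 in Eo−, and 1.54, 2.88, 2.48 and 3.24 in Eo+. Again no group overlapped another. The log2 fold change from ESC was -0.67 ± 0.18 in Eo− (adjusted p = 0.00520) and -2.31 ± 0.22 in Eo+ (adjusted p = 4.68e-07), and Eo+ kept 20.6% of the ESC mean.

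Mael, which acts in piRNA-guided transposon silencing (chr1:166201378-166238752, minus strand), was higher in one fraction and lower in the other. ESC libraries held 5.83, 5.22, 4.91 and 8.61 CPM, Eo− libraries 6.40, 10.34, 10.51 and 10.02, and Eo+ libraries 0.240, 0.679, 0.730 and 0.650. Replicate 1 was the lowest library of both sorted fractions, and ESC and Eo− overlapped. The rise in Eo− was 0.61 ± 0.23 (log2, 95% CI 0.11 to 1.12, adjusted p = 0.0356) and lost its call with edgeR (0.60, adjusted p = 0.0989), with DESeq2 (0.54, adjusted p = 0.0986), with DESeq2 size factors in limma (0.55, adjusted p = 0.0536) and when ESC replicate 1, 2 or 5 or Eo− replicate 2, 5 or 6 was left out (0.52 to 0.60, adjusted p 0.0698 to 0.0969). The fall in Eo+ was -3.51 ± 0.35 from ESC (adjusted p = 8.08e-07) and -4.12 ± 0.34 from Eo− (adjusted p = 1.09e-06), and every alternative kept both.

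Stk31, a kinase-like protein with a Tudor domain found in the germline (chr6:49395542-49469506, plus strand), measured 5.76, 6.68, 6.34 and 10.7 CPM in ESC, 2.70, 3.12, 2.77 and 3.13 in Eo− and 0.252, 0.249, 0.333 and 0.412 in Eo+. The groups were separate and in the same order as for Dazl. The mean was 39.7% of ESC in Eo− (log2 -1.28 ± 0.19, adjusted p = 5.87e-05) and 4.22% in Eo+ (-4.55 ± 0.27, adjusted p = 8.11e-09).

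Tdrkh, a Tudor and KH domain protein on mitochondria that takes part in piRNA trimming (chr3:94413099-94441576, plus strand), did not pass the test in any comparison. It measured 5.23, 8.33, 6.47 and 9.63 CPM in ESC, 7.49, 8.57, 9.08 and 6.95 in Eo− and 7.98, 8.16, 10.1 and 6.34 in Eo+, so all groups overlapped. The log2 fold change was 0.17 in Eo+ (95% CI -0.23 to 0.58, adjusted p = 0.425) and 0.16 in Eo− (-0.25 to 0.56, adjusted p = 0.485) against ESC, and 0.02 between the fractions (-0.38 to 0.41, adjusted p = 0.945). These intervals leave room for a modest change in either direction.

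Of the meiotic chromosome proteins, Hormad1, which binds unsynapsed chromosome axes (chr3:95559677-95587671, plus strand), showed the largest fall of the 10 genes in the fit. ESC libraries held 33.0, 27.4, 21.8 and 41.5 CPM, Eo− libraries 3.82, 4.08, 3.37 and 4.15, and Eo+ libraries 0.0663, 0.119, 0.165 and 0.136. The lowest ESC library was above every Eo− library, and the lowest Eo− library above every Eo+ library. The mean was 12.5% of ESC in Eo− (log2 -2.96 ± 0.22, adjusted p = 1.44e-07) and 0.393% in Eo+ (-8.02 ± 0.45, adjusted p = 4.52e-09), from 52 to 117 counts per Eo+ library. Its neighbour Golph3l, 1.26 kb away on the same strand, had 34.2 CPM in ESC, 33.1 in Eo− and 36.3 in Eo+, a log2 fold change of 0.09 ± 0.09 in Eo+ (adjusted p = 0.410). Ctss, a lysosomal protease gene 3.27 kb away on the other side and on the same strand, had mean levels of 0.658 CPM in ESC, 0.00733 in Eo− and 0.00307 in Eo+, the last below the floor. It passed the filter through ESC alone, the group where it is high, so no test of it is given.

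Sycp3, a structural protein of the synaptonemal complex (chr10:88459569-88473236, plus strand), behaved differently in Eo− cells. It measured 40.6, 38.9, 27.5 and 43.6 CPM in ESC, 29.5, 35.3, 48.6 and 30.1 in Eo−, and 6.71, 14.0, 14.7 and 10.7 in Eo+. ESC and Eo− overlapped, and both lay above Eo+. Against ESC the log2 fold change was -0.08 in Eo− (95% CI -0.51 to 0.35, adjusted p = 0.741) and -1.75 ± 0.25 in Eo+ (adjusted p = 2.09e-05). Between the fractions it was -1.67 ± 0.25 (adjusted p = 0.000107), and Eo+ still held 11.5 ± 3.66 CPM (SD, n = 4).

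Slc25a31 encodes the ADP/ATP carrier of spermatocyte mitochondria (chr3:40708818-40725595, plus strand). Its levels were 2.15, 2.46, 1.84 and 3.09 CPM in ESC, 1.64, 1.80, 1.45 and 2.06 in Eo−, and 0.191, 0.201, 0.147 and 0.206 in Eo+. ESC and Eo− overlapped, and Eo+ stood below both. The fall in Eo− (log2 -0.43 ± 0.18, adjusted p = 0.0463) was close to the threshold: 15 of 22 alternatives put it above (adjusted p 0.0131 to 0.129 over all 22), among them leaving out ESC replicate 1, 2 or 6, Eo− replicate 1, 2 or 5, or Eo+ replicate 1, 2 or 6. The fall in Eo+ was -3.65 ± 0.25 (adjusted p = 2.57e-08), to 7.81% of ESC.

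Tex101, a surface glycoprotein of sperm precursors (chr7:24668012-24672050, minus strand), was the lowest of the 10 genes per length in each group. ESC libraries had 0.502, 0.708, 0.611 and 1.25 CPM, Eo− libraries 0.197, 0.412, 0.229 and 0.240, and Eo+ libraries 0.0395, 0.0130, 0.0296 and 0.04999, from 10 to 32 counts. The groups did not overlap. The log2 fold change was -1.47 ± 0.33 in Eo− (adjusted p = 0.00175) and -4.57 ± 0.50 in Eo+ (adjusted p = 1.95e-06), the latter with the widest SE of the 10 genes in that comparison.

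Prdm1, a transcriptional repressor also known as Blimp1, is needed to specify primordial germ cells and is known in the visceral endoderm as well. The locus spans chr10:44437168-44528862 on the minus strand, and the RefSeq start site used for its promoter window lies 70114 bp inside the 5′ end of the assembled locus. ESC libraries held 22.1, 17.2, 15.1 and 14.3 CPM, Eo− libraries 15.6, 4.37, 4.80 and 5.51, and Eo+ libraries 18.1, 11.6, 20.6 and 13.7. It was the only gene of the 10 with a higher level in Eo+ than in Eo− that passed the test (log2 1.24 ± 0.33, adjusted p = 0.00665). Eo+ did not differ detectably from ESC (-0.13, 95% CI -0.73 to 0.47, adjusted p = 0.697), and Eo− was lower (-1.37 ± 0.32, adjusted p = 0.00219). The Eo− mean of 7.56 CPM rests on replicate 1: without it the mean was 4.89 CPM and the changes were -1.80 from ESC (adjusted p = 4.67e-05) and 1.68 between the fractions (adjusted p = 0.000162). The sum over 6 visceral endoderm genes was 12.1 CPM in that Eo− library and 2.61 to 3.44 in the other Eo− libraries. In Eo+ replicates 1, 2, 5 and 6 it was 82.7, 4.47, 40.3 and 16.9 CPM, and in ESC 4.24 to 7.97. The part of such cells in the Prdm1 level was not tested.

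**Figure D3:**
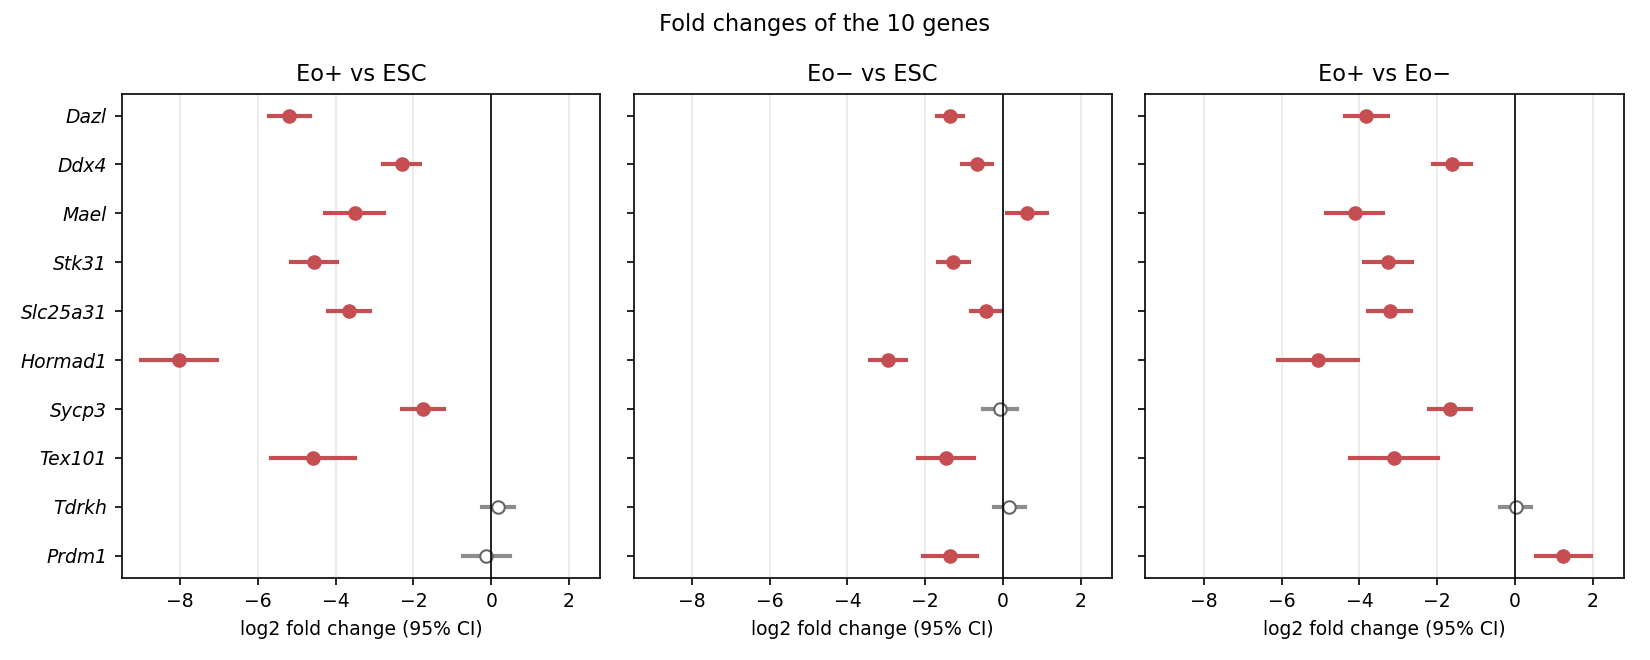
log2 fold change of each gene with its 95% confidence interval in the limma fit, for Eo+ against ESC, Eo− against ESC and Eo+ against Eo−. Filled red points passed an adjusted p of 0.05 and open grey points did not. Hormad1 has the lowest value in the left panel (-8.02), Mael lies to the right of 0 in the middle panel (0.61) and Prdm1 in the right panel (1.24).

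ESC replicate 6 was the highest ESC library at 8 of the 10 genes, and Eo+ replicate 1 the lowest Eo+ library at 5. ESC replicate 6 also had the lowest sum of feeder genes (98.4 CPM) and the highest sum of 6 genes of 2-cell-like cells (60.6 CPM, against 25.9 to 47.2 in the other ESC libraries). Their sums were at most 0.0690 CPM in Eo+ and 1.77 in Eo−, with no count of calls given because 4 of the 6 passed the filter through ESC alone, and Zscan4c and Zscan4f had at most 1 count in any Eo+ library. Their part in the levels was not tested, and without ESC replicate 6 the same 8 genes were called lower in Eo+.

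Other genes of the programme were counted in lists, which were also chosen with earlier results of these data known. An excess of a list over all loci is therefore no independent evidence. The counts that follow are to be read against the shares of all loci: 35.8% lower and 36.1% higher in Eo+ than in ESC, 31% and 31.3% in Eo−, and 24.6% and 23.1% between the fractions. Of 20 tested genes of the piRNA pathway and germ granule, 15 were lower and 3 higher in Eo+ than in ESC (median log2 -2.50), 12 lower and 4 higher in Eo− (-0.96), and 14 lower and 2 higher in Eo+ than in Eo− (-1.64). Of the 20, 2 (Tdrd9 and Henmt1) had passed the filter through ESC alone. Gtsf1, a piRNA pathway factor, fell from 2.08 ± 0.361 to 0.0205 ± 0.00869 CPM in Eo+ (log2 -6.71 ± 0.39, adjusted p = 5.44e-09). Tex19.1, which restrains transposons, went from 153.5 ± 19.3 CPM in ESC to 28.6 ± 6.42 in Eo− and 2.33 ± 0.399 in Eo+ (-6.05 ± 0.24, adjusted p = 2.90e-10). Tdrd3 and Tdrd7, which encode Tudor domain proteins, rose in Eo+ by 1.00 ± 0.09 and 0.96 ± 0.20, and in Eo− by 0.41 ± 0.09 and 0.82 ± 0.20. Tdrd5 rose in Eo− by 0.97 ± 0.21 and did not pass the test in Eo+ (0.35 ± 0.22). Piwil4 fell in Eo− (-2.58 ± 0.30) and further in Eo+ (-4.40 ± 0.39). Tdrd3 is also known in somatic cells.

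Of 32 tested genes of meiotic prophase, 21 were lower and 3 higher in Eo+ than in ESC (median log2 -1.19), 16 lower and 5 higher in Eo− (-0.32), and 18 lower and 1 higher between the fractions (-1.16). Over all loci 35.8%, 31% and 24.6% were lower, and 36.1%, 31.3% and 23.1% higher. Stra8, which starts the meiotic programme, fell from 10.9 ± 7.35 CPM in ESC to 0.221 ± 0.0869 in Eo− and 0.0354 ± 0.0258 in Eo+ (adjusted p = 2.40e-05). Spata22, a partner of MEIOB in meiotic recombination, had 1.40 ± 0.364 CPM in ESC and no count in any of the 4 Eo+ libraries, which with 3 counts per library as the floor is at least 336-fold lower. It was the 1 gene of the 32 that passed the filter through ESC alone, where it is high, and so had to be lower elsewhere. In the other direction Msh5, a meiotic MutS homologue, rose in Eo+ (2.02 ± 0.38) and in Eo− (1.61 ± 0.39). Prdm9, which places recombination hotspots, rose in Eo+ (1.07 ± 0.19) and in Eo− (0.52 ± 0.20). Spo11, which makes the meiotic breaks, rose in Eo− from 0.215 ± 0.136 to 1.00 ± 0.770 CPM (2.33 ± 0.64) and did not pass the test in Eo+ (1.34 ± 0.68). The Eo− mean of Spo11 rests in part on replicate 1, at 2.15 CPM, and was 0.621 CPM without it. Mei1, of the same list, passed the filter through Eo− alone (0.175 FPKM, against 0.0961 in ESC and 0.0732 in Eo+). It is counted among the 5 higher in Eo−, and had to be lower in ESC and Eo+.

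Germ cell specification genes, 17 tested, were lower in 12 and higher in 3 cases in Eo+ (median log2 -1.59), lower in 10 and higher in 1 in Eo− (-1.32), and lower in 8 and higher in 4 between the fractions (-0.77). The shares lower over all loci were 35.8%, 31% and 24.6%, and with 23.1% higher between the fractions the 4 of 17 higher there are near the background. The largest falls in Eo+ were those of Tcl1 (58.8 ± 13.5 to 0.0589 ± 0.0312 CPM) and Dppa3, also called Stella (31.0 ± 4.79 to 0.133 ± 0.0761 CPM). Tfap2c, needed for primordial germ cells, fell about equally in both fractions (log2 -2.75 in Eo− and -2.76 in Eo+). Several of the list, Tcl1, Dppa3 and Pou5f1 among them, are also genes of pluripotent cells. Zbtb16 (2.85 ± 0.33), a factor of spermatogonial stem cells, and Kit (0.92 ± 0.23), a receptor of germ cells and of other lineages, rose in Eo+. Zbtb16 also rose in Eo− (2.31 ± 0.34), where Kit did not pass the test (-0.02 ± 0.25).

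Of 22 late gamete genes, 8 passed the filter on low values. The 4 called in Eo+ were lower than in ESC, in Eo− 5 were lower and 1 higher, and the 4 called between the fractions were lower in Eo+, with medians of -0.69, -1.38 and -0.39. Of all loci 35.8% were lower in Eo+ than in ESC, 31% in Eo− and 24.6% between the fractions. The counts turn on the filter: in Eo+ against ESC 2 were called when 1 CPM in 4 libraries was required and 10 with no filter, and between the fractions 8 with no filter. Zp3, a protein of the egg coat, fell from 9.30 ± 1.33 CPM in ESC to 1.49 ± 0.0944 in Eo− and 0.0811 ± 0.0565 in Eo+. Ooep, a maternal oocyte protein, fell from 87.9 ± 16.0 CPM in ESC to 11.9 ± 1.85 in Eo− and 0.805 ± 0.181 in Eo+. Padi6, an egg protein, had 0.515 CPM in ESC, 0.0680 in Eo− and 0.00427 in Eo+, the last within the range of the floor, and passed the filter through ESC alone. Ldhc, the lactate dehydrogenase of sperm, was higher in Eo− (1.08 ± 0.20).

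Genes for repressors of the germline programme, 25 tested, moved in both directions: 7 higher and 9 lower in Eo+, 7 and 7 in Eo−, and 5 and 7 between the fractions, with medians of -0.13, -0.03 and -0.08. These shares are close to those over all loci, 36.1% higher and 35.8% lower in Eo+, 31.3% and 31% in Eo−, and 23.1% and 24.6% between the fractions. Yaf2 (1.60 ± 0.09) and Ring1 (1.13 ± 0.13), of Polycomb complexes, rose in Eo+, and L3mbtl2 (-1.17 ± 0.08), of the same family of complexes, fell. Of the complex whose motifs were searched, E2f6 rose in Eo+ (1.01 ± 0.11), while Mga (-0.60 ± 0.08) and Max (-0.30 ± 0.06) fell. Trim28, a corepressor of transposons, fell in Eo− (-0.73 ± 0.09) and in Eo+ (-1.07 ± 0.09). The DNA methyltransferase genes differed in course. Dnmt3b rose from 468 ± 66.1 CPM in ESC to 2026 ± 186 in Eo− (2.12 ± 0.14) and to 749 ± 199 in Eo+ (0.66 ± 0.15). Dnmt3a rose in Eo− by 1.15 ± 0.12 and did not pass the test in Eo+ (-0.13 ± 0.13, limma adjusted p = 0.374). Dnmt3l, a cofactor without own activity, fell from 297 ± 40.3 to 76.3 ± 8.08 in Eo− and 9.95 ± 2.28 CPM in Eo+ (-4.92 ± 0.16).

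**Figure D4:**
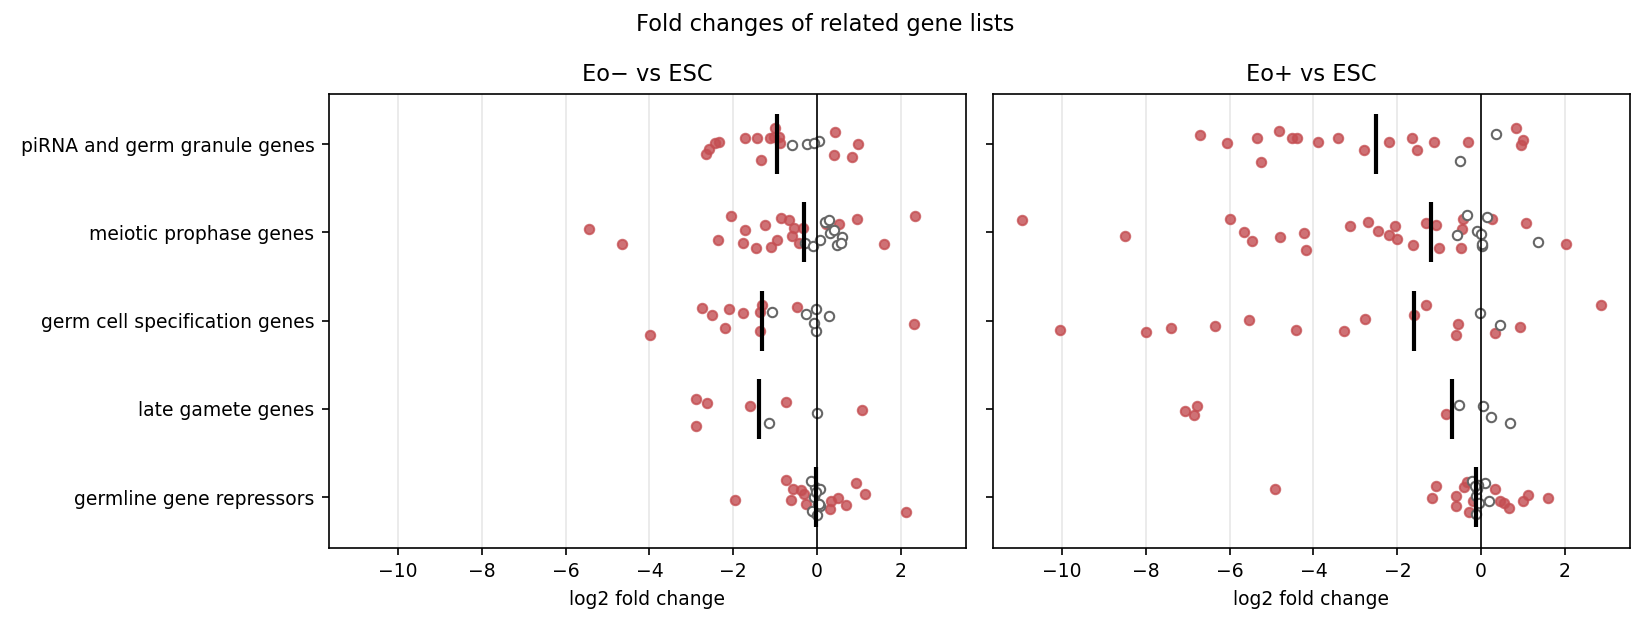
log2 fold change against ESC of the tested genes of the 5 lists, Eo− on the left and Eo+ on the right on the same scale. Each point is a gene, filled red where called and open where not, and the black bar is the median of the list. The medians in Eo+ are -2.50 for the piRNA and germ granule list and -0.13 for the repressors, and the leftmost Eo+ point is Spata22, whose fitted value is no bound because no Eo+ library held a count of it.

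The genes beside the 10 loci moved in both directions. Of the 20 nearest tested protein-coding neighbours, 10 were higher and 4 lower in Eo+ than in ESC, and 7 higher and 4 lower in Eo−. Over all loci 36.1% were higher and 35.8% lower in Eo+, and 31.3% and 31% in Eo−, so that 7 of 20 is near the background. Ctss, counted among the 4 lower in each fraction, had passed the filter through ESC alone. Dazl is flanked by Rftn1 (88.7 kb away, 3.69 ± 0.33 in Eo+) and Plcl2 (215 kb away, 2.39 ± 0.22), both of which rose. Intu, 3.98 kb from Slc25a31, rose by 0.79 ± 0.09. Gpa33, 34.9 kb from Mael, fell with it in Eo+ (-4.56 ± 0.25), but was also lower in Eo− (-1.04 ± 0.17), where Mael was higher.

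As a description over the 12 libraries, which fall into 3 groups, the loci with the pattern most like Dazl were 2410141K09Rik (in a locus with Zfp640), Lincenc1, Morc1, Dppa4 and Dmrt1, with Pearson r of 0.995 to 0.996 on log2 CPM. Morc1, a germline silencing factor, had means of 107, 18.8 and 0.276 CPM in ESC, Eo− and Eo+, and Dmrt1, a sex-determination factor of the testis, 40.4, 14.7 and 1.47 CPM. For Prdm1 the likest loci were those of C4bp (joined with Pfkfb2), Cpeb4, Arhgef12, Klhl28 and Hcfc2, with r of 0.920 to 0.943.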

How the data were processed

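Poly(A) RNA of 12 libraries (3 groups of 4) was sequenced as paired, stranded reads. The authors mapped reads to mm10, assembled transcripts with Cufflinks 2.2.1 on the Ensembl annotation and deposited raw counts per merged locus, made with HTSeq 0.6.1, for 80012 loci. The submitters' processing notes name STAR 2.0.4. The count table has 0 columns that belong to no sample here. A deposited normalized table was not used. The 5 tally lines of the counter stayed out of library sizes, and they held 22.4% to 26.2% as not unique and 2.65% to 3.60% as outside any locus, so reads shared between near-identical genes were not counted.

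From these counts, loci entered the test with a mean FPKM above 0.1 in any group, if they were protein-coding genes, annotated lncRNAs or non-annotated multi-exon lncRNAs (14216, 993 and 2713, in all 17922), with biotypes from GENCODE. limma 3.58.1 with voom (R 4.3.3) used TMM library sizes from edgeR 4.0.16 and 1 mean per group over 12 libraries, two-sided, with Benjamini-Hochberg adjustment. CPM and FPKM in the text use the TMM library sizes, and the filter used total counts. Data were simulated for Eo+ against ESC over 17922 loci, with a fixed dispersion of 0.04 and 100 changed loci of each size. On these the fit recovered 89% of 2-fold and 100% of 4-fold changes. For the genes described here, the SD in ESC and Eo+ ran from 14.6% of the mean (Slc25a31, Eo+) to 47.7% (Tex101, Eo+). The recovered shares are therefore not the power for each of these genes. Alternatives were edgeR, DESeq2 1.42.0, other scalings and filters, a replicate block and leaving out each library.

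Named were all 10 genes, per list and comparison with ESC the 2 largest called rises and falls with at least 0.5 CPM in the higher group, nearest neighbours, and the 5 loci most like Dazl and Prdm1. Zscan4c, Zscan4f and Pou5f1 were named from marker lists, and Tdrd9, Henmt1, Mei1, E2f6, Mga and Max after their values were seen. Members and lists were chosen with earlier results of these data known. Same-numbered Eo+ and Eo− libraries deviated together (correlation 0.195 to 0.495 in the 4 pairs), and pairs with ESC reached -0.0970 to 0.214. Libraries with different numbers were not compared, so these values cannot show that a number marks a pair. Sequences are from RefSeq.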

Additional observations from a re-analysis of the deposited data

Results flagged for a closer look

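Of 30 groups of 4 libraries, 3 held a library far from the others, and chance alone flags about 1 in 20 where groups are independent. All 3 flagged libraries are of replicate 1, whose Eo+ and Eo− libraries deviated together (correlation 0.495), so the flags are not independent of each other. Mael had 6.40 CPM in Eo− replicate 1, against 10.02 to 10.51 in the other Eo− libraries, and 0.240 CPM in Eo+ replicate 1, against 0.650 to 0.730. Prdm1 had 15.6 CPM in Eo− replicate 1, against 4.37 to 5.51. Mael also moved in opposite directions from ESC in the sorted fractions, 0.61 in Eo− and -3.51 in Eo+ on the log2 scale, and the difference itself, tested in the same fit, was -4.12.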

How the results depend on the processing

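Over 22 alternatives, 1 of them (TMM factors over all counted loci) chosen after seeing the data, no called change of the 10 genes reversed, and no call was lost in Eo+ against ESC or against Eo−. In Eo− against ESC the rise of Mael lost its call in 9 and the fall of Slc25a31 in 15. The number of genes higher in Eo− than in ESC was therefore 0 with edgeR, with DESeq2 and with DESeq2 size factors, and 0 to 1 when 1 library was left out. Late gamete genes called in Eo+ against ESC numbered 2 when 1 CPM in 4 or more libraries was required and 10 with no expression filter, against 4, since the filter sets which are tested; between the fractions they numbered 8 with no filter, against 4. With the replicate block, which treats same-numbered libraries as paired, no call of the 10 genes changed, and Dazl fell by 5.20 on the log2 scale in Eo+. Tex101 was not tested under the 1 CPM filter. Summing all loci of a name gave no value, since each name had 1 locus. Without the expression filter the median of all loci moved to -0.17 in Eo+ and -0.11 in Eo− against ESC, and with loci of all classes it was 0.01 and 0.14. Low counts limit the Eo+ values of Tex101 and Hormad1.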

Other observations

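Antisense loci overlap 2 of the genes. The locus opposite Prdm1 held 0 to 33 counts per library and the one opposite Tex101 2 to 37 counts, read from strand-aware counting.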
